A study of Mus musculus with 2 samples.

Results

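The p53 target genes examined here were Cdkn1a, Mdm2, Ccng1, Bax, Bbc3, Pmaip1, Sesn1, Btg2, Plk2 and Trp53inp1. All non-control array probes carrying 1 of these gene names were taken, whatever their values, which gave 13 probes on 22 spots for 10 genes, out of 39424 probes and 15419 measured genes. RNA came from mouse primary hepatocytes, liver parenchymal cells taken into culture, and was measured on 2 Agilent 1-colour microarrays. One array was made from cells transfected with G0s2 siRNA and 1 from cells transfected with control siRNA, each at 50 pmol with a lipid transfection reagent in 24-well plates, in medium with 10% serum. RNA was taken 24 hours after transfection, and 0.5 ug per sample was labelled with Cy3. Both groups had therefore received a lipid reagent and a duplex RNA. The strain, sex and age of the mice, the number of animals behind each array and the siRNA sequences are not given in the sources used here. The series asked how knockdown of G0s2, which encodes an inhibitor of the triglyceride lipase of the Pnpla2 gene, changes hepatocyte gene expression.

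The transcription factor p53, encoded by Trp53, is stabilised after DNA damage and other stresses and binds paired decamers near the genes it activates. Its targets halt the cell cycle, start apoptosis, limit growth signalling and, through Mdm2, remove p53 itself. In hepatocytes such genes are best known for their response to genotoxic drugs and for restraining division during liver regeneration. The arrays measured RNA, so they hold no value for p53 protein or its activity.

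Each group had 1 array, so no difference below has a replicate check, and each compares 2 arrays. A level is the log2 processed signal minus that of the 75th percentile of its array, and a difference is the level with G0s2 siRNA minus the level with control siRNA. The error beside a difference comes from the signal error the scanner reports, and over genes measured on both arrays its median was 0.20. It covers neither the culture, the RNA extract nor the labelling. The G0s2 siRNA array had a signal of 728 at its 75th percentile and 58.2% of probes well above background, and the control siRNA array had 418 and 54.1%. G0s2 itself had a signal of 103 with G0s2 siRNA and 383 with control siRNA, a difference of -2.70 ± 0.21, or 6.50-fold lower. All 8 hepatocyte markers fixed for the check, among them Alb and Hnf4a, were well above background on both arrays. So were 6 of 6 macrophage, 4 of 5 cholangiocyte, 4 of 5 endothelial, 1 of 5 stellate and 1 of 3 lymphocyte markers.

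The probes are 60 bases long, and stretches of 30 bases are shown for Ccng1 and Bax, 2 of the 3 genes past 2-fold, and for Cdkn1a and Trp53inp1, whose probes disagreed. Coordinates, given as in the scanner files, refer to mm9. Exons and UTRs of that build were not annotated here. Capitals mark the letters AATAAA, the sequence of the common polyadenylation signal, wherever they occur. The Cdkn1a probe for NM_001111099, which holds them, lies at transcript position 55, near the 5' end. In the probe for ENSMUST00000122348 alone, capitals mark the last ATG. ATG in the other stretches is not marked.
Cdkn1a probe for NM_007669, chr17:29237377-29237436: ctaagggagctcacaggacactgagcaatg
Cdkn1a probe for ENSMUST00000122348, chr17:29235299-29235358: tcttgtgtttcagccacaggcaccATGtcc
Cdkn1a probe for NM_001111099, chr17:29227986-29228045: acgtcccactttgccagcagAATAAAaggt
Ccng1 probe for NM_009831, chr11:40562427-40562486: agaAATAAAattgctgagtttatctgcaaa
Bax probe for NM_007527, chr7:52717122-52717181: tcctgggatgaatgggggaaggggaaaggc
Trp53inp1 probe for NM_021897 at transcript position 5041, chr4:11101174-11101233: gtgtgtttatgggcacaatgttttctctca
Trp53inp1 probe for NM_021897 at transcript position 659, chr4:11092530-11092589: aactcctgtcctggtctcagtgaggcgagt

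The 10 genes differed in both directions. Ccng1 was at least 2-fold higher with G0s2 siRNA, Plk2 and Bax were at least 2-fold lower, and the other 7 differed by less. Past 2-fold were thus 3 of 10 genes, against 10.3% of all 15419 genes, of which 4.81% were higher and 5.46% lower. The median difference was -0.17 over the 10 genes and -0.06 over all genes, with 4 of 10 differences above 0 and 6 below. Of all genes 45% were above 0 and 55% below. Differences of more than 2 times the scanner error were seen for 4 of 10 genes, Ccng1, Plk2, Bax and Cdkn1a, against 38% of genes measured on both arrays. All 13 probes were well above background on both arrays and none was saturated, so no value here is a bound.

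**Figure D1:**
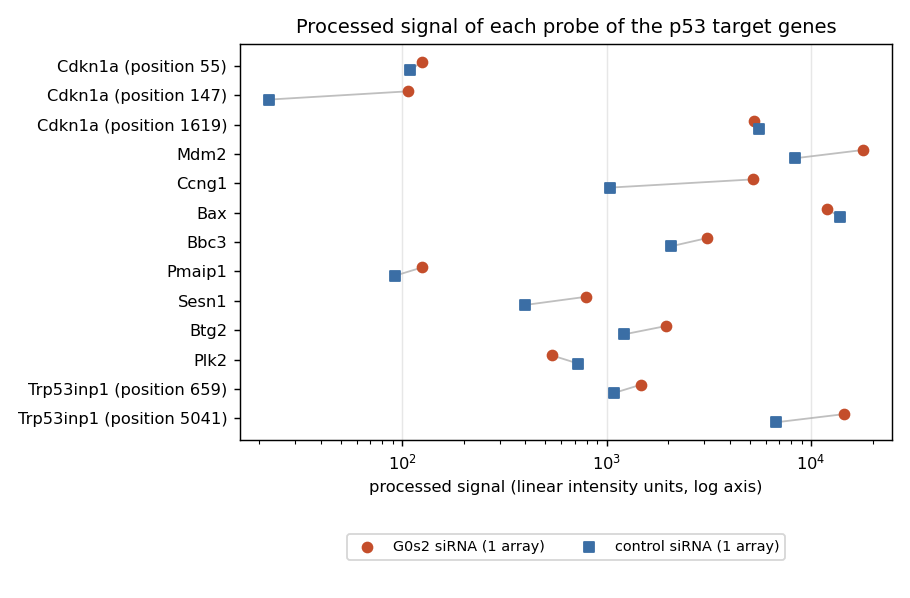
Processed signal on a log axis for each of the 13 probes, with circles for the G0s2 siRNA array and squares for the control siRNA array. Before scaling, the probe representing the gene was brighter on the G0s2 siRNA array for 7 of the 10 genes and dimmer for Cdkn1a, Bax and Plk2.

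Directions are relative to the 75th percentile because the G0s2 siRNA array was brighter as a whole. Before any scaling, 91.0% of all genes had a higher signal on the G0s2 siRNA array, with a median log2 ratio of 0.77. Among the p53 targets, 7 of 10 did. Cdkn1a, Bax and Plk2 had a lower signal on the G0s2 siRNA array even before scaling. Centring on 8 spike-in controls, whose log2 signal ratios before scaling, G0s2 siRNA over control siRNA, ran from -0.98 to -0.08, moved the median of all genes by 1.58. On that scale 7 of 10 members were at least 2-fold higher, against 85.1% of all genes, and 0 were at least 2-fold lower, against 0.246%. Whether equal amounts of spike-in went onto both arrays is not stated in the labels.

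Among the cell cycle arrest genes, Cdkn1a encodes the cyclin-dependent kinase inhibitor that p53 is best known for inducing. Its main probe, for NM_007669, was printed on 10 spots of each array. The 10 spots ran from 5115 to 5415 with a median of 5300 on the G0s2 siRNA array. On the control siRNA array they ran from 5265 to 5847 with a median of 5592, and 4 were flagged as outliers and left out. Kept spots of the G0s2 siRNA array all lay below those of the control siRNA array, whose lowest was 5469, while the flagged spot at 5265 lay among those of the G0s2 siRNA array. These spots measured the same 2 labelled RNAs and are technical. The standard deviation over spots was 0.026 with G0s2 siRNA and 0.033 with control siRNA on the log2 scale. The signals themselves differed little, and the scaled levels were 2.86 with G0s2 siRNA and 3.74 with control siRNA, a difference of -0.88 ± 0.20.

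**Figure D2:**
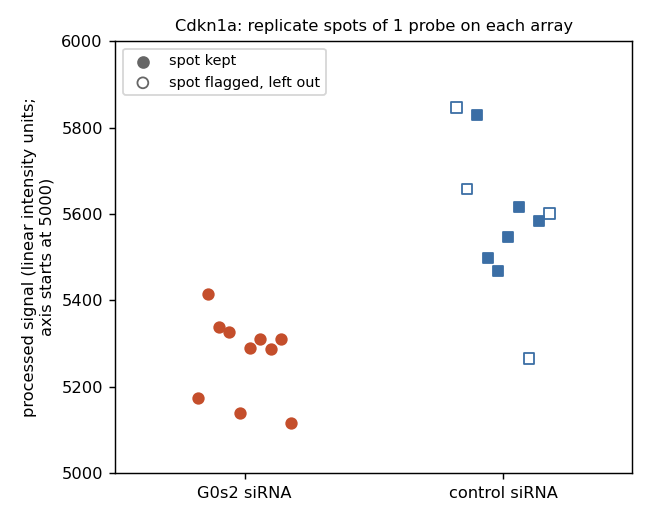
Processed signal of the 10 spots of the main Cdkn1a probe on each array, on a linear axis that starts at 5000. Open symbols are the 4 control siRNA spots flagged as outliers, and kept spots span 5115 to 5415 with G0s2 siRNA and 5469 to 5830 with control siRNA.

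The other Cdkn1a probes gave other values. The probe for ENSMUST00000122348, which carries the ATG shown above, had a signal of 106.5 with G0s2 siRNA and 22.5 with control siRNA, a difference of 1.45 ± 0.29. The probe for NM_001111099 had a signal of 124 with G0s2 siRNA and 109 with control siRNA, a difference of -0.61 ± 0.21. The differences of the 3 probes thus spanned 2.33. Among 534 genes with 3 or more probes measured on both arrays the median span was 0.55, and 0.562% had a span as wide. Both of these probes were dim, and under normexp background correction they gave 0.36 and -0.47. With the mean over probes Cdkn1a differed by -0.02. Whether the probes report different Cdkn1a transcripts was not tested.

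Ccng1 encodes cyclin G1, which recruits the phosphatase PP2A to the Mdm2 protein. Its probe had a signal of 5212 with G0s2 siRNA and 1044 with control siRNA. Levels were 2.84 with G0s2 siRNA and 1.32 with control siRNA, a difference of 1.52 ± 0.20, or 2.87-fold higher. Of all genes, 97.0% had a smaller difference in size. The value rests on 1 probe and 1 spot per array, and was 1.15 under normexp. Ccng2, its nearest relative, differed by -0.03.

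Btg2 encodes an antiproliferative protein that promotes removal of mRNA poly(A) tails. Its signal was 1946 with G0s2 siRNA and 1221 with control siRNA, a difference of -0.13 ± 0.20, which is smaller than the scanner error. Of 5 BTG and TOB family genes none was past 2-fold, against 10.3% of all genes. Btg1 differed by -0.07, and its other probe by 0.96.

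Plk2 encodes a polo-like kinase that acts in centriole duplication. Its 1 probe, with 1 spot per array, had a signal of 541 with G0s2 siRNA and 726 with control siRNA. Levels were -0.43 with G0s2 siRNA and 0.80 with control siRNA, a difference of -1.22 ± 0.20, or 2.34-fold lower. This was the largest decrease of the 10 genes. Within the same kinase family the signs were mixed. Plk1, a mitotic kinase, had a signal of 2487 with G0s2 siRNA and 544 with control siRNA, a difference of 1.39. Plk3, another stress-responsive member, differed by 0.64. Plk4 was not well above background on the control siRNA array. Its bound of 0.29, or 1.22-fold higher, was smaller than its scanner error of 0.91. Beside Plk2 and Bax, markers of bile duct cells had lower levels with G0s2 siRNA. All 4 measured of 5 cholangiocyte markers had differences below 0, against 55% of all genes, from -1.13 to -0.55, with a log2 summed level of 1.99 with G0s2 siRNA and 2.79 with control siRNA. Of 6 macrophage markers 3 were above 0 and 3 below, with a median of -0.09. Their log2 summed level was 2.73 with G0s2 siRNA and 3.43 with control siRNA, with Mpeg1 the lowest at -1.18 and Adgre1 the highest at 0.67. Epcam was the cholangiocyte marker not well above background on either array. Of 8 hepatocyte markers 6 were above 0 and 2 below, with a median of 0.37 and Hnf4a the highest at 1.04. For hepatocyte markers the log2 summed level was 10.08 with G0s2 siRNA and 9.91 with control siRNA. Of 4 measured endothelial markers 2 were above 0 and 2 below, with a median of 0.30. Their log2 summed level was also lower with G0s2 siRNA, at 2.75 against 3.21 with control siRNA. Kdr was the lowest at -0.51, though its other probe gave 1.27, and Cdh5 the highest at 1.01. The 1 measured stellate marker, Col1a1, differed by -0.10, and the 1 measured lymphocyte marker, Cd3e, by -1.01. The part of bile duct cells, macrophages or other cell types in the values of Plk2 and Bax was not tested. Fewer cells of a type and less RNA per cell cannot be told apart, and which cells this RNA came from was not measured. The marker directions also depend on the scaling. Before scaling, Spp1 had a higher signal with G0s2 siRNA, 1655 against 1389, while Krt19, Krt7 and Sox9 had lower signals. Spike-in centring moved values up by 1.58, more than the size of any cholangiocyte marker decrease.

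**Figure D3:**
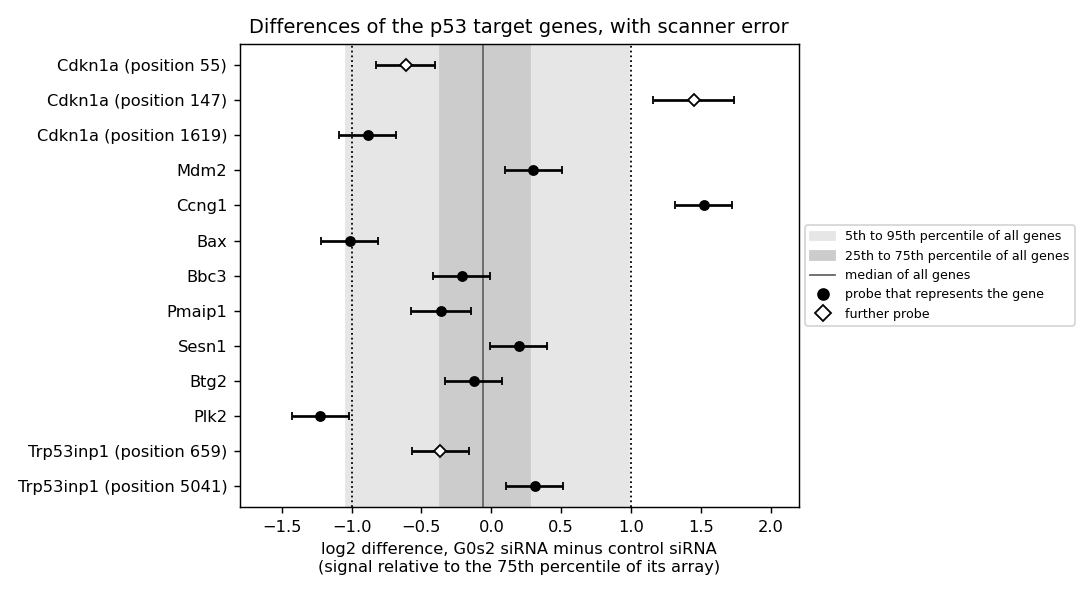
Log2 difference, G0s2 siRNA minus control siRNA, of each probe with the scanner error as bars. Grey bands give the percentiles of all 15419 genes and dotted lines mark 2-fold. Ccng1 at 1.52 lies above the 95th percentile of 0.98, and Plk2 at -1.22 lies below the 5th percentile of -1.04. With spike-in centring all values would lie 1.58 further right.

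Of the apoptosis genes, Bax encodes a protein that opens the outer mitochondrial membrane. Its 1 probe, with 1 spot per array, had a signal of 11902 with G0s2 siRNA and 13814 with control siRNA. Levels were 4.03 with G0s2 siRNA and 5.05 with control siRNA, a difference of -1.01 ± 0.20, or 2.02-fold lower. That lies at the edge of the 2-fold rule, and Bax was past the rule in the values as reported but not under normexp, quantile or loess normalization, with the authors' series table or with the probe position trend removed. The other pore-forming genes of the BCL2 family, a grouping made after their values were seen, were also lower. Bak1 had a signal of 3792 with G0s2 siRNA and 5641 with control siRNA, a difference of -1.37, and Bok had 414 with G0s2 siRNA and 662 with control siRNA, a difference of -1.47.

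Bbc3 and Pmaip1 encode PUMA and NOXA, BH3-only proteins that free or activate the pore formers. Bbc3 had a signal of 3103 with G0s2 siRNA and 2068 with control siRNA, a difference of -0.21 ± 0.20. Pmaip1 had a signal of 125 with G0s2 siRNA and 92.5 with control siRNA, a difference of -0.36 ± 0.21. Neither exceeded 2 times the scanner error. Of 8 BH3-only genes 6 were below 0, against 55% of all genes. At least 2-fold lower was 1 of the 8, against 5.46% of all genes, namely Bcl2l11, which encodes BIM, at -1.22. Bcl2l11 was dim, with a signal of 47.3 with G0s2 siRNA and 63.3 with control siRNA, and gave -0.75 under normexp.

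Mdm2 encodes the ubiquitin ligase that marks p53 for degradation and is itself a p53 target. Its signal was 17886 with G0s2 siRNA and 8358 with control siRNA, and levels were 4.62 with G0s2 siRNA and 4.32 with control siRNA. The difference was 0.30 ± 0.20, within 2 times the scanner error. Mdm4, the related p53 inhibitor, differed by 0.18, and its other probe by 0.31. Trp53 had a signal of 421 with G0s2 siRNA and 298 with control siRNA, a difference of -0.30 ± 0.20.

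Trp53inp1 encodes a nuclear protein that promotes p53 phosphorylation and also takes part in autophagy. Its brighter probe, at transcript position 5041, had a signal of 14528 with G0s2 siRNA and 6728 with control siRNA, a difference of 0.31 ± 0.20. The probe at position 659 had 1467 with G0s2 siRNA and 1087 with control siRNA, a difference of -0.37 ± 0.20. The probes thus had opposite signs, and their span of 0.68 was reached by 21.2% of 3377 genes with several probes. The mean over both was -0.03. Across genes, probes at positions 505 to 826 had a median difference of -0.17 and those from position 4522 onward 0.07, so the signs of these probes lie the same way as those medians. With the probe position trend removed, Trp53inp1 by its brighter probe differed by 0.20. At positions 1 to 504 the median was -0.16, and the Cdkn1a probes at positions 55 and 147 differed by -0.61 and 1.45. An effect of probe position on Trp53inp1 itself was not tested. The relative Trp53inp2 differed by 0.27.

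Sesn1 encodes a sestrin, which restrains growth signalling through mTORC1 when nutrients are short. It had a signal of 797 with G0s2 siRNA and 400 with control siRNA, a difference of 0.19 ± 0.20, smaller than the scanner error. Sesn2 and Sesn3 differed by 0.38 and 0.55, so 3 of 3 sestrins were above 0, against 45% of all genes, and none was past 2-fold.

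The lists of further p53 pathway genes were described in the same way. Of 32 other p53 targets, 30 were measured, and their median difference was 0.12. At least 2-fold higher were 3 of the 30, against 4.81% of all genes, and 0 were past 2-fold in the other direction, against 5.46%. Tigar, which encodes a fructose bisphosphatase that slows glycolysis, had a signal of 1804 with G0s2 siRNA and 223 with control siRNA. Its difference was 2.22 ± 0.21, or 4.64-fold higher, and its other probe gave 1.79. Siva1, which encodes a proapoptotic protein, had a signal of 3161 with G0s2 siRNA and 418 with control siRNA, a difference of 2.12 ± 0.20, and its other probe gave 1.95. Only 0.499% of all genes were at least 4-fold higher. Lpin1, a phosphatidate phosphatase of triglyceride synthesis, differed by 1.02, at the edge of the rule. The 27 others lay between -0.61 for Phlda3 and 0.80 for Eda2r, whose scanner error was 0.32. Of the 30 measured, 18 were above 0 and 12 below, against 45% and 55% of all genes.

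Of 19 genes for p53 and its regulators, 18 were measured, with a median difference of -0.03. Past 2-fold was 1 of the 18, against 10.3% of all genes, namely Chek2, a DNA damage checkpoint kinase, with a signal of 145 with G0s2 siRNA and 32.03 with control siRNA and a difference of 1.38 ± 0.25. Its signal was low, and under normexp it differed by 0.31. Of 22 family relatives of the members, 1 was at least 2-fold higher, Plk1, against 4.81% of all genes. In the other direction 3 of the 22 were past 2-fold, Bok, Bak1 and Bcl2l11, against 5.46%. Their median difference was 0.17. Cdkn1b, the nearest relative of Cdkn1a, differed by 0.22. Sesn2, Bid and Mdm4 stand in 2 of these lists.

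**Figure D4:**
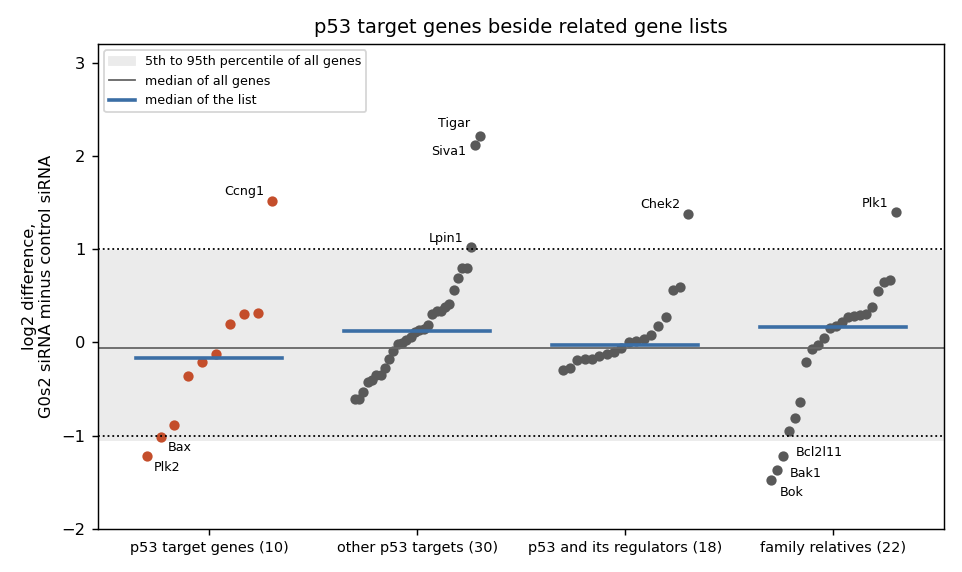
Log2 difference of every measured gene of the p53 target genes and of 3 related lists, sorted within each, with blue bars for list medians and dotted lines at 2-fold. Ccng1, Tigar, Siva1, Lpin1, Chek2 and Plk1 lie at or above 1, and Plk2, Bax, Bok, Bak1 and Bcl2l11 at or below -1. Spike-in centring moves every value up by 1.58 and leaves none below -1.

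Upstream sequences were searched for the p53 consensus decamer, the half-site that p53 binds in pairs, which reads the same on both strands. RefSeq sequences of GRCm38.p6, from 250 bases before to 50 after each start, held 12 starts for 8 of the 10 genes, without Pmaip1 and Trp53inp1. A perfect decamer was present in 5 of 12 windows, of Cdkn1a, Ccng1, Bax, Mdm2 and Sesn1, against 8.36% of 32851 windows. In 1 of these windows, an upstream start of Cdkn1a, 2 decamers lay within 13 bases of each other, which 0.0731% of windows held. The genes were taken as p53 targets, so neither comparison is independent of how they were chosen, and neither uses the array values. Some windows of a gene overlap, as for Bbc3. The 250 bases before the start are printed for that window, for Ccng1, which was higher with G0s2 siRNA, and for Bax, which was lower, with decamers in capitals.
Cdkn1a, chr17:29090729-29090978, plus strand: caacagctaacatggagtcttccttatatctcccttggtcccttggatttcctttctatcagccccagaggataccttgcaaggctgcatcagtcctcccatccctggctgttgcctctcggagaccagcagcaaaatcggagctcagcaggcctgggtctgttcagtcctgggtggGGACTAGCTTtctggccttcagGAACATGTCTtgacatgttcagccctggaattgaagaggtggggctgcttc
Ccng1, chr11:40755287-40755536, minus strand: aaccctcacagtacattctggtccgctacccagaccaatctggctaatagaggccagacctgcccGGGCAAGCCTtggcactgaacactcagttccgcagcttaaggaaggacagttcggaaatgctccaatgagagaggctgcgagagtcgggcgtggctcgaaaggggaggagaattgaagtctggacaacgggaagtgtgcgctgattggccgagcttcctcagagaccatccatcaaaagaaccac
Bax, chr7:45466899-45467148, minus strand: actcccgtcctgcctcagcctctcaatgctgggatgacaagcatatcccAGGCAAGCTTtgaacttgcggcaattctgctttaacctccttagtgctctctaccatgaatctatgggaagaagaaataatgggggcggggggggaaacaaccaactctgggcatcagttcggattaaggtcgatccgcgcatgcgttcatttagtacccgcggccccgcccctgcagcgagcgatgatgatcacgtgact
The Cdkn1a decamers start 73 and 51 bases before the transcript start, the Ccng1 decamer 185 and the Bax decamer 201. Genes with a decamer thus held both the member that was past 2-fold higher and 1 of the 2 past 2-fold lower, while none was found for Plk2, Bbc3 or Btg2. Only perfect decamers were sought, so half-sites with a mismatch were missed and are not in capitals. In the Cdkn1a window the bases tgacatgttc, directly after the second decamer, miss the consensus by 1 base. A match is a description of these letters, and p53 binding was not measured.

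AATAAA was counted in the probes as a feature that the gene names did not fix. It was present in the representing probe of 4 of 10 genes, against 15.7% of genes measured on both arrays. Among the 4 were both Ccng1, at 1.52 the largest increase of the 10 genes, and Plk2, at -1.22 the largest decrease. The median difference was 0.25 over the 4 genes with AATAAA in the probe and -0.29 over the others. Over all genes measured on both arrays it lay the other way, at -0.12 with AATAAA and -0.05 without. A link between AATAAA in a probe and its difference was not tested.

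**Figure D5:**
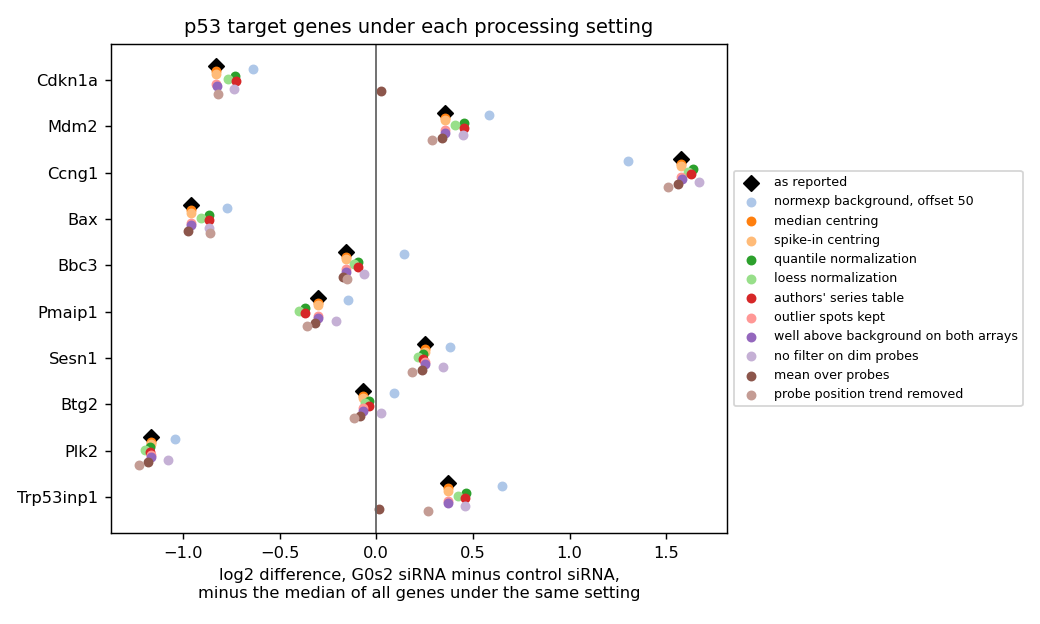
Log2 difference of each gene, G0s2 siRNA minus control siRNA, minus the median of all genes under the same processing setting, with black diamonds for the values as reported. Ccng1 stays between 1.30 and 1.67, Plk2 between -1.23 and -1.04 and Bax between -0.97 and -0.77, and Cdkn1a reaches 0.03 with the mean over probes.

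Relative to the median of all genes under the same setting, Ccng1 was above it in all 12 settings, by 1.30 to 1.67. Mdm2, Sesn1 and Trp53inp1 were also above it in all 12, by at most 0.65. Plk2, Bax and Pmaip1 were below it in all 12. Cdkn1a and Bbc3 were below it in 11 and Btg2 in 10. Counted from that median, Plk2 was the 1 member past 2-fold lower in each setting, and Bax was not.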

How the data were processed

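Spot intensity values were deposited as scanner tables read with Agilent Feature Extraction 10.7.1.1, per the file headers, whose processed signal is linear and background-corrected. The authors' deposited series table holds linear intensity values sharing nearly 1 distribution, by a method not given in the sources used here, and served as an alternative. Control spots and outlier-flagged spots were left out, spots of a probe were averaged on the log2 scale, and each array's 75th percentile was subtracted, giving 39424 probes. Accession, symbol or synonym gave current names through the RefSeq table of GRCm38.p6. The brightest probe by mean level that was well above background on at least 1 array represented a gene. A value below that threshold was raised to the lowest well-above-background level, so its difference is a bound.

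With 1 array per group, no p-value was computed. Named genes were all members, G0s2, Trp53, Mdm4, the nearest relatives and genes of the fixed lists past 2-fold. Some others, such as Sesn3, Plk4, single markers and the ends of a list's range, were named outside this rule. Members and lists were chosen with earlier results of these data known. The calling step was tested on simulated data. Python 3.11.15, statsmodels 0.14.6, R 4.3.3 and limma 3.58.1 were used. Alternatives were normexp with an offset of 50, other centring and normalization, the authors' table, other filters, probe rules and fold rules, and kept outlier spots. Subtracting a lowess fit (span 0.3) on probe position, and counting from the median of all genes, were chosen after seeing the data. Sequences of some member probes are not reported here.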

Additional observations from a re-analysis of the deposited data

How the results depend on the processing

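Of 10 members, 1 was at least 2-fold higher as reported, 7 with spike-in centring and 0 at 3-fold. At least 2-fold lower were 2 as reported, 1 under normexp, quantile or loess normalization, with the authors' table, with the probe position trend removed or counted from the median of all genes, and 0 with spike-in centring or at 3-fold. Spike-in centring moved the members' median to 1.41 and that of all genes to 1.52, and turned Bax to 0.56 and Plk2 to 0.35. Among all genes, 741 were at least 2-fold higher and 842 lower. These counts were 378 and 518 under normexp, 13122 and 38 with spike-in centring, 1523 and 1455 without a filter on dim probes, 1918 and 2245 at 1.5-fold, and 176 and 236 at 3-fold. Apart from spike-in centring, 9 of 10 members kept their sign in 11 settings, and Trp53inp1 changed with the mean over probes. For the spike-in shift, the scale itself differs. For the other changes, the cause was not tested. No paired analysis was possible because each group has 1 array. Leaving out a replicate was not possible for the same reason. Signal was low for the further Cdkn1a probes, Chek2 and Bcl2l11, and their differences were smaller in size under normexp. So was that of Ccng1, whose 1 probe was brighter than these.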
